A study of Mus musculus with 7 samples.

Results

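Among the non-endothelial stromal cells of the mouse mesenteric lymph node (mLN), 1417 cells carried the transcripts of Pi16 and Cd34 and are described here as Pi16 Cd34 cells. They were chosen from the kept cells, those in which 1000 to 4600 genes were detected and no more than 4.5% of the unique molecular identifiers (UMIs, counted transcript molecules) came from mitochondrial genes. A member had no UMI of the endothelial gene Pecam1, at least 1 UMI of Cd34, at least 2 UMIs of Pi16, at most 1 UMI of Dpep1 and at most 2 UMIs of Ccl19. Of 17692 deposited cells 13197 were kept, 9542 of these had no Pecam1 UMI, and the 1417 members divided by age into 828 (D0), 87 (D10), 171 (D24), 300 (D56) and 31 (D300) cells. Since measured values of Pi16, Cd34, Dpep1, Ccl19 and Pecam1 chose the cells, the levels of those 5 genes are given below as a description only.

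The study followed stromal cells of the gut-draining mLN from birth to old age by droplet single-cell RNA sequencing. Untreated BALB/c mice kept under specific pathogen-free conditions were taken at day 0 (D0), day 10 (D10), day 24 (D24), day 56 (D56) and day 300 (D300), the small intestinal and the colon and caecum-draining nodes were digested with collagenase P, dispase and DNase I, and CD45- CD24- cells were sorted. The labels list 7 libraries, with 2 at D56 and 2 at D300, but the cells of those pairs cannot be told apart in the merged matrix, so each age counts as 1 sample. The legends of the study differ from the labels on the replicates at D300. Thus 5 samples entered the fits. Age therefore cannot be told apart from library, and how many animals went into a library is not given in the sources used here.

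Stromal cells of the lymph node support the organ from within. Fibroblastic reticular cells (FRC) lay out the T cell zones and secrete the chemokines CCL19 and CCL21, which attract lymphocytes and dendritic cells through their receptor CCR7. CD34+ stromal cells lie instead at the capsule and in the adventitia, the outer sheath of large vessels, and in many organs a Pi16+ Dpp4+ adventitial fibroblast is regarded as a matrix-producing cell with progenitor traits. Dpep1, a membrane dipeptidase, marks another kind of Cd34+ cell of the mLN, and the 902 kept cells with no Pecam1 UMI, at least 2 Dpep1 UMIs and at most 1 Pi16 UMI served as the nearest comparison (Dpep1 cells: 23, 83, 155, 373 and 268 cells from D0 to D300). The gate of the Dpep1 cells set no limit on Cd34, so that they were not chosen as Cd34+ cells. A more distant comparison was given by 1010 Ccl19 cells, with at least 3 Ccl19 UMIs and no UMI of Pecam1, Cd34, Pi16 or Dpep1.

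The kept cells held a median of 7497, 7262, 6779, 5862 and 4292.5 UMIs from D0 to D300, so that depth fell with age. Summed over each age, the Pi16 Cd34 cells gave 6992803, 680837, 1548131, 1829429 and 163383 UMIs, and their levels are given as UMIs per 1000000 of such a sum (CPM), always in the order D0, D10, D24, D56 and D300. A gene at 100 CPM thus rests on few UMIs in the D300 members and in the 193768 UMIs of the 23 Dpep1 cells at D0, and intervals on single levels are exact 95% Poisson intervals that cover counting error only. A call means an adjusted p under 0.05 in edgeR's quasi-likelihood test with Benjamini-Hochberg adjustment over all genes tested. Age was a block in every fit but those of a slope within 1 class. Errors after ± are standard errors of a log2 difference or slope. In comparisons of classes the p-values measure the spread of a difference over these 5 ages, each 1 pool of cells. For slopes and slope differences they measure the scatter about a line over log2(day + 1).

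Before the results, 3 features of the pools have to be given. The D0 members were mostly rich in Mfap4, a microfibril-associated protein by which the study recognised fibroblasts of adjacent tissue: 639 of 828 members at D0 carried more than 3 Mfap4 UMIs, against 31 of 87, 45 of 171, 5 of 300 and 0 of 31 in the later ages. Further, 35 members (2.47%) held at least 2 UMIs summed over the mesothelial markers Msln, Upk3b, Lrrn4, Krt8 and Krt18, and 20 of these 35 came from the 171 members at D24. Finally, UMIs of the pancreatic enzyme Ctrb1 stood at 450.3, 0, 211, 0 and 0 CPM in the members and at 382, 2.20, 248, 0 and 0 CPM in the Ccl19 cells, a level that followed the age and not the class of cell. The tests between classes, over age and of Ackr3 were repeated with only the cells of at most 3 Mfap4 UMIs and again without cells with mesothelial UMIs. Among the Mfap4-poor cells the D0 pool of Dpep1 cells held only 2 cells (16045 UMIs), so that each fit of these against Dpep1 cells is weakest at that age. Moreover, the limit of at most 2 Ccl19 UMIs was set on the members and not on the Dpep1 cells, so that the gate bore on genes read together with Ccl19 in 1 class alone. The fits against the Dpep1 cells were therefore repeated with the Dpep1 cells of at most 2 Ccl19 UMIs (23, 71, 132, 257 and 216 cells from D0 to D300), below called the shared Ccl19 limit.

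The markers Cd248 and Ackr3, which the rule did not use, were read to check the name of these cells. Pi16 and Cd34 chose the cells and are given as a description only. Pi16, a peptidase inhibitor (chromosome 17, 29317680 to 29330593, plus strand, GRCm38), was read at 708, 1279, 1360.3, 2570.2 and 3207 CPM, and Cd34, a sialomucin (chromosome 1, 194938819 to 194961279, plus strand), at 819, 1000.2, 654, 823 and 698 CPM. Cd248, the surface glycoprotein endosialin (chromosome 19, 5068078 to 5070682, plus strand), was not used by the rule and stood at 260.3, 430.4, 374, 574 and 459 CPM in the members, at 222, 156, 138, 149.8 and 38.6 CPM in the Dpep1 cells and at 30.7, 10.3, 8.90, 19.2 and 6.73 CPM in the Ccl19 cells. The Cd248 level was higher in the Pi16 Cd34 cells at each of the 5 ages, with the narrowest gap to the Dpep1 cells at D0. There a Cd248 UMI was found in 79.5% of members (76.6% to 82.2%) and 69.6% of the 23 Dpep1 cells (47.1% to 86.8%). These exact 95% binomial intervals overlap. Ackr3, an atypical receptor that takes up the chemokine CXCL12 (chromosome 1, 90203980 to 90216751, plus strand), stood at 74.5, 197, 335, 661 and 606 CPM in the members against 72.3, 35.4, 69.8, 114 and 43.5 CPM in the Dpep1 cells. At D0 the Ackr3 levels of the 2 classes overlapped in their counting intervals (members 68.2 to 81.2 CPM, Dpep1 cells 39.5 to 121 CPM), and from D10 on the members were higher. Both genes passed against the Dpep1 cells, Cd248 with a log2 difference of 1.65 ± 0.29, adjusted p = 0.00169, and Ackr3 with 2.42 ± 0.30, adjusted p = 0.000117, in edgeR's test.

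The depth of reading allowed Cd248 and Ackr3 to be followed cell by cell. When every cell was thinned to 2000 UMIs, a Cd248 UMI was found in 37.8%, 52.9%, 48.5%, 60.9% and 45.2% of members from D0 to D300 (79.5%, 86.2%, 86.5%, 83.3% and 71.0% before thinning). The same share in the thinned Ccl19 cells was 5.49%, 2.77%, 3.06% and 1.60% at D0, D10, D56 and D300. At D24 it was 0 of 87 cells, for which 3 counts set a limit of 3.45%. In the thinned endothelial cells it was 5.33%, 1.52%, 2.83%, 6.15% and 1.97% from D0 to D300. The part of free RNA in these shares was not tested. An Ackr3 UMI was found in 11.1%, 27.6%, 39.8%, 58.6% and 58.1% of thinned members (31.2%, 56.3%, 77.8%, 77.3% and 74.2% before), against 2.20%, 1.85%, 1.15%, 3.93% and 1.07% of Ccl19 cells. Endothelial cells, which themselves read Ackr3, gave 16.0%, 9.14%, 15.5%, 16.0% and 15.1%. An Ackr3 UMI was thus read in a minority of members at birth and in a majority at D56 (median depths of 8136.5 and 5622.5 UMIs per cell). A cell without a UMI may still hold the transcript, so that these are not shares of cells with Ackr3. Of the thinned members, 29 of 828 at D0 and 124 of 297 at D56 gave UMIs of both Cd248 and Ackr3, and 452 and 66 gave UMIs of neither.

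Cells just inside and just outside the gate limits are described over all ages together, without regard to the mix of ages in each. The 322 members with exactly 2 Pi16 UMIs read Cd248 at 235 CPM and Ackr3 at 87.9 CPM, and the 649 cells that missed the gate by having 1 Pi16 UMI read them at 163 and 52.1 CPM. The 123 members with exactly 1 Cd34 UMI had Cd248 at 214 CPM and the 90 cells without Cd34 had it at 148 CPM. The order was the other way at the Dpep1 and Ccl19 limits. The 364 members with 1 Dpep1 UMI had Cd248 at 390.0 and Ackr3 at 337 CPM, and 213 cells left out for 2 Dpep1 UMIs had them at 442 and 498 CPM. The 115 members with 2 Ccl19 UMIs had them at 339.6 and 248 CPM, and 33 cells left out for 3 Ccl19 UMIs at 368 and 496 CPM. The 125 cells left out for 1 Pecam1 UMI had them at 347 and 272 CPM. Cells over both limits, with at least 2 UMIs of Pi16 and of Dpep1, numbered 67, 54, 168, 401 and 86 by age and belonged to neither class.

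**Figure D1:**
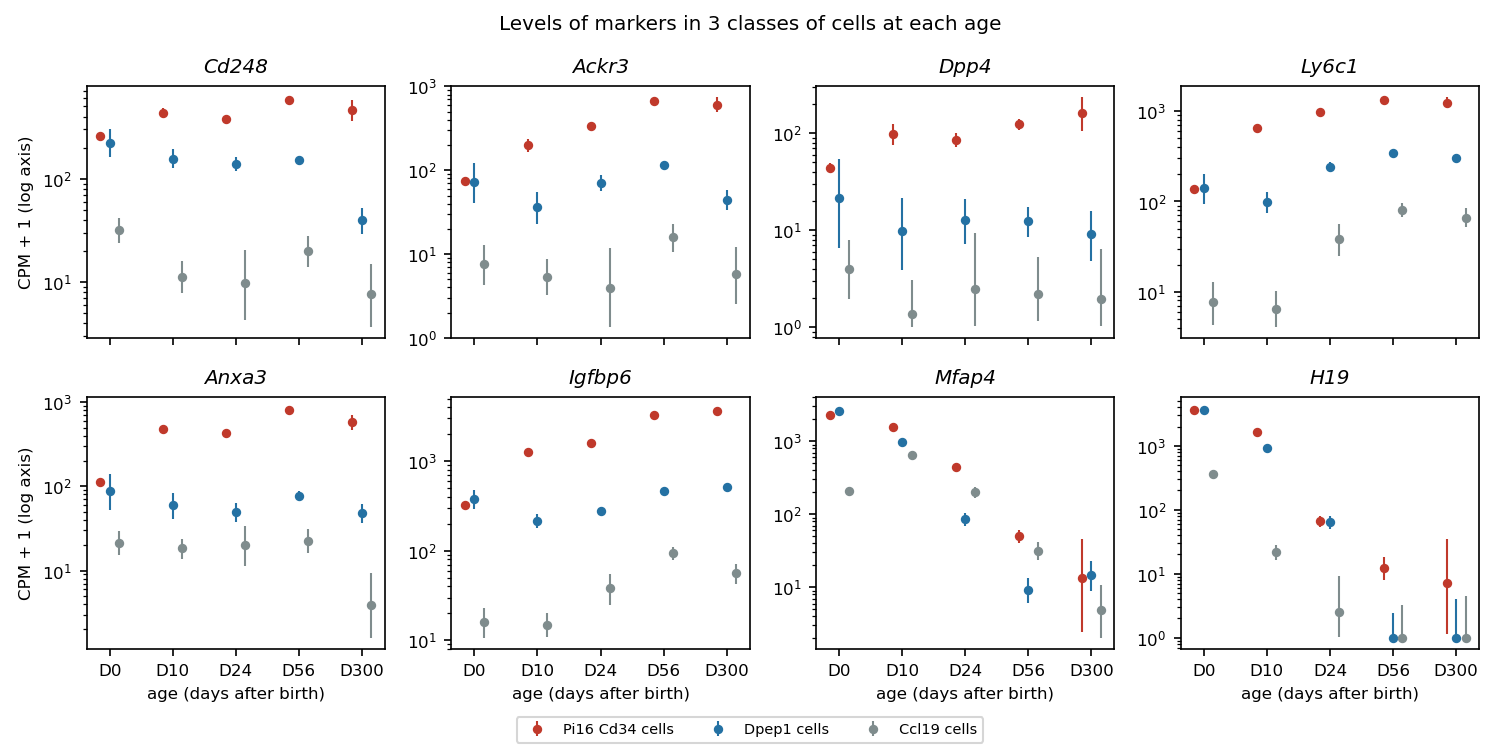
Levels of 8 genes in CPM + 1 (log axis) at each age in Pi16 Cd34 cells (red), Dpep1 cells (blue) and Ccl19 cells (gray). Points are 1 pool of cells per age and bars are exact 95% Poisson intervals. Cd248, Ackr3, Dpp4, Ly6c1, Anxa3 and Igfbp6 separated the classes most clearly from D10 on, while Mfap4 and H19 fell with age in the Pi16 Cd34 cells.

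The share of Pi16 Cd34 cells among non-endothelial cells was highest at birth and lowest in old age. From D0 to D300 they made up 26.3%, 6.02%, 16.6%, 11.7% and 2.31% of kept cells without Pecam1, with exact 95% binomial intervals of 24.8% to 27.9%, 4.85% to 7.37%, 14.3% to 18.96%, 10.4% to 13.0% and 1.57% to 3.26%. Counting only members with at most 3 Mfap4 UMIs, the shares were 6.0%, 3.87%, 12.2%, 11.5% and 2.31%, so that most of the share at D0 came from Mfap4-rich cells. With cells thinned to 2000 UMIs and a gate lowered to match (at least 1 UMI of Pi16 and Cd34, none of Dpep1, at most 1 of Ccl19) they were 17.1%, 5.18%, 12.2%, 11.3% and 1.70%. The Dpep1 cells made up 0.730%, 5.74%, 15.0%, 14.5% and 19.97%, lowest at D0 and highest at D300, and the Ccl19 cells made up 5.78%, 22.5%, 8.42%, 8.90% and 13.9%. With 1 sample per age these shares have no test between ages.

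**Figure D2:**
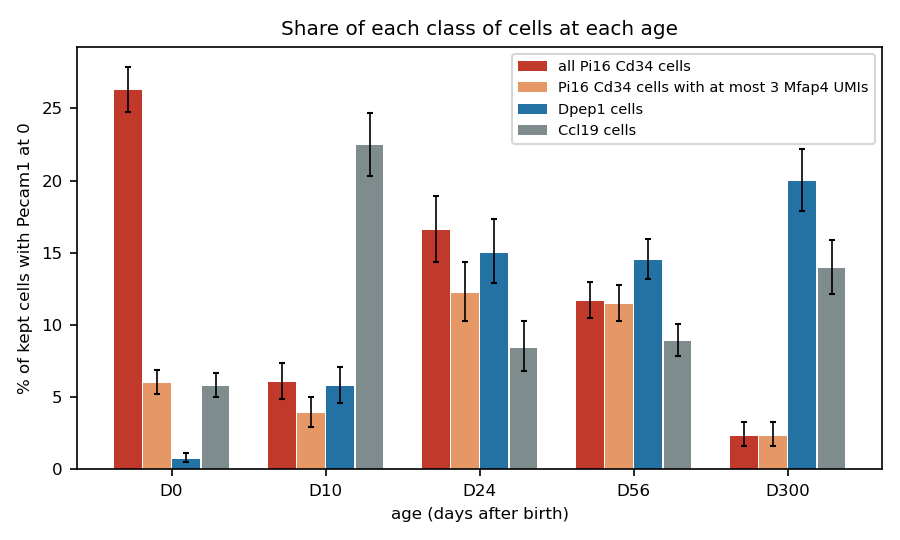
Share of each class (% of kept cells with no Pecam1 UMI) at each age, with exact 95% binomial intervals that cover counting error only. Pi16 Cd34 cells stood at 26.3% at D0 and 2.31% at D300, and at 6.0% at D0 when only cells with at most 3 Mfap4 UMIs were counted. Dpep1 cells stood at 0.730% at D0 and 19.97% at D300.

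Transcripts of dividing cells were found among the members at birth. With cells thinned to 2000 UMIs, at least 2 UMIs over Cdk1, Mki67, Top2a, Birc5, Ccnb2 and Cenpf were found in 51 of 828 members at D0 (6.16%, 4.62% to 8.02%) and 4 of 87 at D10 (4.60%, 1.27% to 11.4%). At D24 and D300 they were found in 1 of 171 and 1 of 31 members. At D56 they were found in 0 of 297 members, for which 3 counts set a limit of 1.01%. The summed level of the 6 genes in the members was 253, 156, 40.0, 5.47 and 18.4 CPM. At D0 the Ccl19 cells reached 21.4% (39 of 182, 15.7% to 28.1%), above the interval of the members. The Dpep1 cells at D0 gave 2 of 23 (8.70%, 1.07% to 28.0%), an interval that overlaps that of the members. Cycling members were found at both Mfap4 levels, in 13 of 189 cells with at most 3 Mfap4 UMIs (6.88%) and in 38 of 639 with more (5.95%). In the fit over age, 7 of 19 cell-cycle genes tested fell and 0 rose (1.59% and 1.74% of all genes tested). Among them were Top2a (log2 slope -0.68 ± 0.14, adjusted p = 0.0401, edgeR), which untangles replicated DNA, and Hmgb2 (-0.49 ± 0.06, adjusted p = 0.0122).

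Between Pi16 Cd34 cells and Dpep1 cells, genes of universal fibroblasts, elastic fibres, chemokines and complement were among those that differed. Of 9928 genes tested, 455 were higher (4.58%) and 518 lower (5.22%) in the members in edgeR's test, 584 of these 973 moved the same way at each of the 5 ages, and 2077 genes had an unadjusted p under 0.05. The median log2 difference of all genes tested was -0.01. The count depended on single ages: it was 577 without D24, 390 without D56 and 1256 without D0. Under the shared Ccl19 limit 716 of 9227 genes were called, 341 higher and 375 lower.

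Several secreted proteins were among the 8 genes that stood highest against the Dpep1 cells. Dmkn, Krtdap and Sbsn, 3 small secreted proteins first known from the epidermis, had log2 differences of 5.87 ± 0.29, adjusted p = 4.11e-08, 4.88 ± 0.38, adjusted p = 2.64e-06 and 4.18 ± 0.27, adjusted p = 5.02e-07 in edgeR's test. Krtdap was read at 359.8, 394, 309, 257 and 386 CPM in the members and at 82.6, 7.09, 4.48, 6.28 and 8.05 CPM in the Dpep1 cells, so that the groups did not overlap. Tnfrsf11b, which encodes the decoy receptor osteoprotegerin for the cytokine RANKL, was read at 32.7, 69.0, 205, 119 and 110.2 CPM against 10.3, 5.32, 2.69, 3.53 and 0.805 CPM (5.17 ± 0.33, adjusted p = 5.37e-07). Its ligand gene Tnfsf11 stood the other way, at 2.57, 11.8, 1.94, 4.37 and 0 CPM in the members and 0, 88.6, 48.3, 49.4 and 55.6 CPM in the Dpep1 cells (-3.32 ± 0.37, adjusted p = 4.87e-05). Efhd1, a mitochondrial calcium-binding protein, and Angptl1, a secreted angiopoietin-like protein, were higher by 4.29 and 3.38 log2 units.

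Krt19 and Lgals7, a keratin and a galectin of epithelia and mesothelia, were also among the 8 highest, at log2 differences of 5.04 ± 0.36, adjusted p = 1.75e-06 and 3.77 ± 0.45, adjusted p = 8.52e-05. Both moved with the 35 members that carried mesothelial UMIs, where Krt19 stood at 2052 CPM and Lgals7 at 1401 CPM, against 8.78 and 24.6 CPM in the other 1382 members. Those 35 cells also read Dmkn at 1307 CPM against 31.7, Tnfrsf11b at 573 against 55.6, Pi16 at 535 against 1196 and Cd248 at 70.7 against 350.3 CPM. They held a median of 12551 UMIs per cell, against 7665 in the others. Without them the difference of Lgals7 was 1.07 and no longer passed (adjusted p = 0.0933), and that of Krt19 fell to 2.08 (adjusted p = 0.0283) and of Dmkn to 5.13. The other 5 of the 8 genes were called with differences between 3.43 (Angptl1) and 4.96 (Krtdap).

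**Figure D3:**
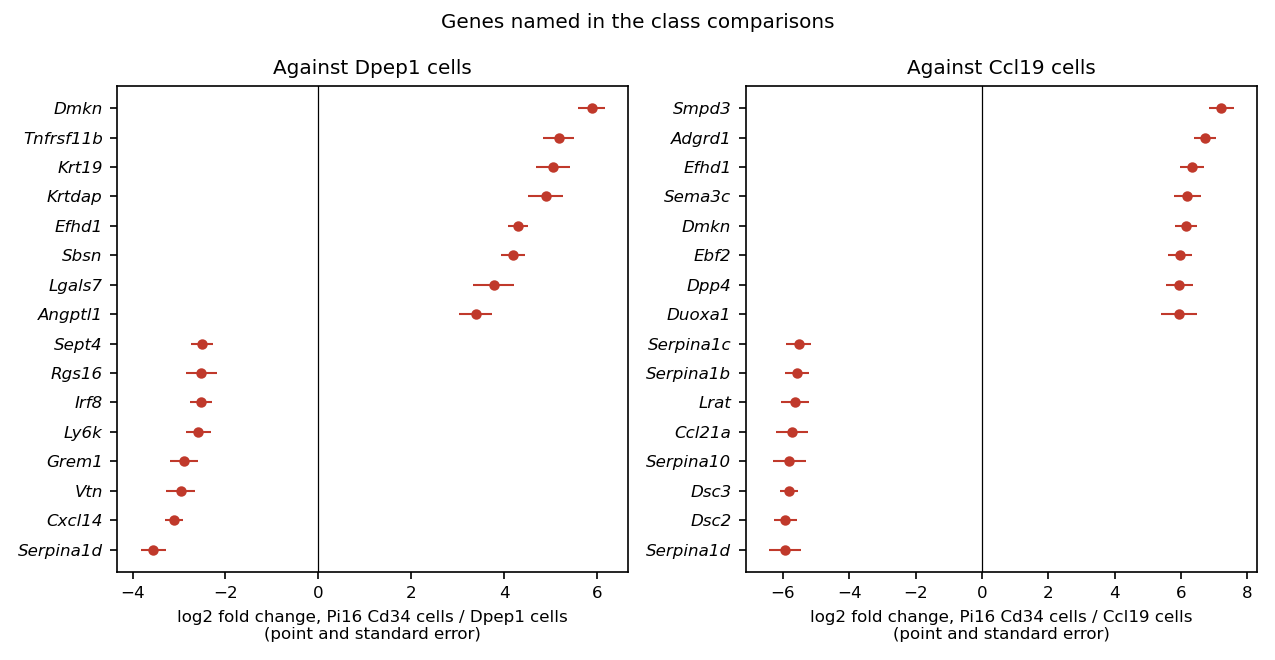
Log2 fold change with its standard error (x axis) of the 8 highest and 8 lowest genes named by a fixed rule in Pi16 Cd34 cells against Dpep1 cells (left) and Ccl19 cells (right), from edgeR's fit over 5 ages. Dmkn led the left panel at 5.87 and Smpd3 the right at 7.22. Krt19 and Lgals7 are read mostly in the 35 members with mesothelial UMIs, and the Serpina1 genes are near-identical copies whose reads may be shared.

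Among the 8 lowest genes was Grem1, 1 of the reticular markers read here. Serpina1d, 1 of a family of alpha-1-antitrypsin genes so alike that their reads may be shared, had a log2 difference of -3.56 ± 0.27, adjusted p = 2.59e-06. Cxcl14, a chemokine, was read at 0.572, 2.94, 15.5, 26.2 and 12.2 CPM in members and 10.3, 15.9, 138, 197 and 153 CPM in Dpep1 cells (-3.10 ± 0.19, adjusted p = 4.70e-07). Vtn, the adhesive plasma protein vitronectin, stood at 15.4, 30.8, 41.3, 122 and 177 CPM against 51.6, 475, 719.6, 669 and 665 CPM (-2.97 ± 0.31, adjusted p = 2.96e-05), and Grem1, a secreted antagonist of bone morphogenetic proteins, at 12.2, 13.2, 5.81, 9.29 and 12.2 against 20.6, 85.0, 103, 78.1 and 107 CPM (-2.90 ± 0.31, adjusted p = 3.48e-05). In all 3 the members were lower at every age. Ly6k, the transcription factor Irf8, the signal regulator Rgs16 and the septin Sept4 were lower, at -2.59, -2.52, -2.52 and -2.51 log2 units.

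Markers that fibroblasts of many organs share with adventitial cells were higher in the members. Of 18 such universal fibroblast genes tested, 13 were higher than in Dpep1 cells and 0 lower, with a median log2 difference of 2.05. Dpp4 (CD26), a peptidase that trims chemokines, was read at 43.2, 96.9, 84.6, 124 and 159 CPM against 20.6, 8.86, 11.6, 11.4 and 8.05 CPM, with a log2 difference of 3.27 ± 0.25, adjusted p = 2.59e-06. Each Dpp4 level of the members lay above each level of the Dpep1 cells. Anxa3, an annexin, followed at 110.3, 479, 429.6, 803 and 581 CPM against 87.7, 58.5, 48.3, 76.5 and 46.7 CPM (2.93 ± 0.30, adjusted p = 3.01e-05), and Ly6c1, a surface antigen with a near-identical copy in Ly6c2, at 137, 658, 973, 1345 and 1236 against 139, 97.5, 241, 339.7 and 300.3 CPM (1.82 ± 0.26, adjusted p = 0.000335). For both the 2 classes lay close together at D0 and apart from D10 on. Sema3c, a secreted guidance factor of vessels and nerves, gave 2.67 ± 0.37, adjusted p = 0.000321, Igfbp6, which binds IGF2, 2.16 ± 0.34, adjusted p = 0.000759, and Wnt2, a Wnt ligand, 3.40 ± 0.47, adjusted p = 0.00029. Dpt, dermatopontin of the collagen matrix, was not called at 0.35 ± 0.16, adjusted p = 0.22, nor was Thy1 at 0.62 ± 0.38, adjusted p = 0.396 or the receptor Pdgfra at -0.09 ± 0.12, adjusted p = 0.817.

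Within the young members the Dpp4 level lay with the cells poor in Mfap4. At D0 Dpp4 stood at 95.4 CPM in the 189 members with at most 3 Mfap4 UMIs and at 28.6 CPM in the 639 with more, at D10 at 133 against 35.9 CPM, and at D24 at 105 against 30.7 CPM. Ackr3 did not follow that order at D0, with 37.9 CPM in the cells poor in Mfap4 and 84.8 CPM in the others, and at D10 it stood at 230 against 140 CPM. At D24 it stood at 343 against 314 CPM. Cd248 stood at 310 against 246 CPM at D0, at 514 against 287 CPM at D10 and the other way at D24, at 365 against 399 CPM. With only the cells of at most 3 Mfap4 UMIs in both classes, 1350 genes were called against the Dpep1 cells, 621 higher and 729 lower. Adjusted p-values of this edgeR fit were far smaller. That of Ackr3 was 1.24e-26 at 2.71 ± 0.21, against 0.000123 at 2.14 ± 0.27 under the shared Ccl19 limit. Whether calls gained in this fit come from the cells left out was not tested.

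In the extracellular matrix, elastic fibre, hyaluronan and collagen genes were read in turn. Of 21 elastic fibre and microfibril genes tested against the Dpep1 cells, 7 were higher and 2 lower. Eln, elastin itself, was read at 2299.9, 1259, 986, 507 and 299.9 CPM against 1811, 477, 284, 122 and 80.5 CPM (1.44 ± 0.21, adjusted p = 0.000385), Fbn1, the fibrillin of microfibrils, at 468, 1169, 1134, 1037 and 551 against 392.2, 319, 329, 183 and 43.5 CPM (1.94 ± 0.30, adjusted p = 0.000818), and Mfap5, a fibrillin partner, gave 1.98 ± 0.28, adjusted p = 0.000391. The 2 classes were closest at D0 in all 3 genes. Efemp1, fibulin-3, was higher by 1.60 and Fbln7, fibulin-7, lower at -1.82 log2 units. Of 10 hyaluronan genes, 5 were higher and 1 lower: Ugdh, which makes the sugar precursor of hyaluronan, at 1.83 ± 0.21, adjusted p = 7.30e-05, the synthases Has1 and Has2 at 1.24 and 1.5, the binding proteoglycan Vcan at 1.38 and the cross-linking pentraxin Ptx3 at 2.10, against the hyaluronidase Hyal1 at -1.67.

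Only 3 of 24 genes for fibrillar collagens and their processing were higher and 0 lower, namely Col14a1, Bmp1 and Pcolce2, which code for a fibril-associated collagen, a procollagen protease and the enhancer of that protease, at log2 differences of 1.28, 0.81 and 1.86. Col1a1 and Col3a1 stood at 0.45 ± 0.16 (adjusted p = 0.098) and 0.33 ± 0.17 (adjusted p = 0.321, edgeR) and were not called. Of 18 basement membrane genes, 2 were higher and 4 lower, with Nid1 up by 0.81 and Col4a1 and Col15a1 at -0.70 and -1.29. Of 9 small leucine-rich proteoglycans 2 were lower, Prelp (-0.71) and Podn (-1.06), and 0 higher. Of 22 proteases and inhibitors 3 were higher and 2 lower: the metalloproteinase inhibitor Timp2 (0.74) and the plasminogen activator Plat (1.07) stood above, the stromelysin Mmp3 (-1.41) and the serpin Serpina3g (-1.55) below.

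Chemokine, cytokine and complement genes were called lower than in Dpep1 cells more often than higher. Of 24 chemokine and cytokine genes tested 10 were lower and 3 higher, with a median log2 difference of -0.76. Ccl21a, a CCR7 ligand with near-identical copies, was read at 97.1, 590.5, 490.3, 3429 and 2393 CPM in members and 92.9, 3339.9, 9159, 15635 and 16640.2 CPM in Dpep1 cells (-2.55 ± 0.41, adjusted p = 0.000931), and Cxcl12, the ligand that the Ackr3 receptor takes up, at 1245, 781, 528, 999.8 and 1714 against 898, 4938, 4336, 5342 and 5961 CPM (-2.03 ± 0.39, adjusted p = 0.00339). At D0 both classes were near each other in Ccl21a and the members were not lower in Cxcl12, and from D10 on the members were lower in both. The 3 higher genes were all atypical receptors that remove chemokines without signalling through G proteins: Ackr3, Ackr2 (3.03 ± 0.69, adjusted p = 0.0106) and Ackr4 (1.86 ± 0.48, adjusted p = 0.0226), which takes up CCL19 and CCL21. Of 11 complement genes, 7 were lower, such as C4b (-1.61 ± 0.20, adjusted p = 0.000131), C3 (-0.79 ± 0.17, adjusted p = 0.00829) and Clu (-1.33 ± 0.20, adjusted p = 0.000503), and 1 was higher, Cd55 (2.63 ± 0.21, adjusted p = 3.21e-06), which shields cells from complement. Of 9 reticular cell markers 7 were lower and 0 higher, and of 7 markers of the Dpep1 Aldh1a2 cells 5 were lower. Both counts describe cells that the gate set apart by Ccl19 and Dpep1 themselves. Of 24 interferon-stimulated genes 5 were lower and 1 higher (Ifi27l2a, 1.03), and of 23 immediate early and heat-shock genes 4 were lower, such as Jun (-0.78) and Junb (-0.77). With only the Mfap4-poor cells 14 of 24 chemokine and cytokine genes and 12 of 23 immediate early and heat-shock genes were lower.

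Part of these differences moved with the one-sided Ccl19 limit. Under the shared Ccl19 limit 8 of 23 chemokine and cytokine genes were lower and 3 higher, 3 of 11 complement genes were lower and 1 higher, 2 of 24 interferon-stimulated genes were lower and 1 higher, and 4 of 8 reticular markers were lower. Ccl21a then stood at -1.37 (adjusted p = 0.0328, edgeR), Cxcl12 at -1.68 (0.00573) and C4b at -1.25 (0.000310), all still called. C3 (-0.52, adjusted p = 0.0638) and Clu (-0.45, adjusted p = 0.213) were no longer called. Genes of other lists that lost the call under this limit included Mmp3 (adjusted p = 0.0734), Serpina3g (0.222), Hyal1 (0.197), Nid1 (0.106), Klf4 (0.184) and Myh11 (0.125).

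Growth factor genes were divided between the classes. Of 25 Wnt pathway genes 4 were higher and 3 lower: the ligands Wnt2 and Wnt10b and the secreted Wnt-binding proteins Sfrp2 (2.17 ± 0.50, adjusted p = 0.0119) and Sfrp4 (2.70 ± 0.53, adjusted p = 0.00422) stood above, and the enhancer Rspo3 (-1.24) and Frzb (-2.84) below. Wnt10b was read at 2.00, 5.88, 4.52, 9.84 and 18.4 CPM in members, on few UMIs, and at 1 UMI or none per age in Dpep1 cells. Of 29 BMP and TGF-beta genes 4 were higher and 7 lower, among them the ligands Bmp7 (5.14 ± 0.60, adjusted p = 7.77e-05) and Tgfb2 (1.68 ± 0.27, adjusted p = 0.00111) above and Gdf10 (-0.89 ± 0.15, adjusted p = 0.00174) and the antagonist Grem1 below. Of 12 IGF genes 3 were higher, including the binding proteins Igfbp5 (2.19) and Igfbp6, and 3 lower, including Igfbp7 (-0.90). Of 25 vascular and lymphatic growth factor genes 8 were higher and 8 lower, with Angptl1, Pdgfc (4.24), Fgf18 (1.77) and Sema3e (3.48) above and Angptl4 (-0.97) below.

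Enzymes of small lipid mediators separated as well. Of 11 prostanoid genes tested 2 were higher, the cyclooxygenase Ptgs1 at 17.7, 51.4, 84.6, 128 and 153 CPM against 0, 17.7, 13.4, 15.3 and 27.4 CPM (2.58 ± 0.22, adjusted p = 5.90e-06) and the prostacyclin synthase Ptgis (1.95 ± 0.26, adjusted p = 0.000255), and 2 lower, among them the prostacyclin receptor Ptgir at 6.15, 11.8, 5.81, 10.4 and 6.12 against 5.16, 31.9, 34.0, 57.3 and 51.5 CPM (-2.13 ± 0.29, adjusted p = 0.00026). The synthase and the receptor of prostacyclin thus stood on opposite sides. Of 13 lipid handling genes 8 were lower and 1 higher, with the lipoprotein lipase Lpl at -0.94 and the apolipoprotein Apoe at -1.92 ± 0.33, adjusted p = 0.00155, and the phospholipase Pla1a above at 1.74 ± 0.20, adjusted p = 7.58e-05. Of 13 retinoid genes 2 were higher and 2 lower, and the retinal dehydrogenases went opposite ways, Aldh1a3 at 2.05 ± 0.26, adjusted p = 0.000154 and Aldh1a2 at -1.18 ± 0.31, adjusted p = 0.024. Of 16 imprinted growth genes 4 were higher and 1 lower (Mest, -0.80), and of 22 cell-cycle genes 2 were higher and 0 lower (Stmn1 0.77, Ube2c 3.26).

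Of the 7 transcription factors that the study placed on the path of CD34+ cells, 3 were higher and 1 lower than in Dpep1 cells. Ebf2, a factor of mesenchymal and fat precursors, was read at 87.1, 118, 75.6, 189 and 171 CPM against 77.4, 40.8, 44.8, 74.1 and 39.5 CPM (1.17 ± 0.20, adjusted p = 0.00145). Klf3 gave 0.79 ± 0.16, adjusted p = 0.00432 and Nfix 0.55 ± 0.15, adjusted p = 0.0316, and Nfix was no longer called with only the cells of at most 3 Mfap4 UMIs (adjusted p = 0.0723) or under the shared Ccl19 limit (0.138). Cebpa, a factor of fat and myeloid cells, was lower at -1.18 ± 0.26, adjusted p = 0.00769, and Xbp1, Nfib and Irf2 were not called at -0.04 ± 0.13, -0.47 ± 0.15 and -0.60 ± 0.21 (adjusted p = 0.91, 0.0618 and 0.106, edgeR). With only the Mfap4-poor cells Nfib (-0.64) and Irf2 (-0.72) were called lower, at adjusted p = 0.00739 and 0.0146, and Nfib (-0.51) also under the shared Ccl19 limit (0.0472). Of 34 other mesenchymal factors 3 were higher, Klf2 (0.68), Klf4 (0.66) and Creb5 (1.71), and 8 lower, among them Foxf1 (-1.62) and Snai2 (-1.42).

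Markers of other cells were read for the whole of each list. All 8 mesothelial markers tested were higher than in Dpep1 cells, with summed levels in the members of 297, 405, 1601, 393 and 165 CPM. Of 8 adjacent-tissue fibroblast markers 3 were higher and 0 lower, and Mfap4 itself was not called at 1.11 ± 0.34, adjusted p = 0.0546. Of 8 perivascular markers 5 were lower, with Des at -2.05, Myh11 at -2.09 and Notch3 at -1.91. None of 6 endothelial, 1 immune, 1 Schwann, 8 acinar and 3 erythroid markers tested was called in either direction, and the leukocyte gene Ptprc was at 0 in the members. Summed reticular markers reached 4131 CPM at D56 against 17568 CPM in Dpep1 cells. The part of these cells or of their free RNA in the genes above was not tested, beyond the fits without the 35 cells with mesothelial UMIs and with only the Mfap4-poor cells.

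Set against the Ccl19 cells the members differed in far more genes. Of 10581 genes tested 1314 were higher (12.4%) and 1073 lower (10.1%) in edgeR's test, 1992 of the 2387 moved the same way at all 5 ages, and the median over all genes tested was 0.01. When library size alone scaled the pools, 1627 were higher and 928 lower, with the median over all genes at 0.12. Smpd3, a sphingomyelinase, was read at 7.58, 285, 147, 307 and 251 CPM in members and 0.601, 1.10, 2.97, 1.20 and 0.961 CPM in Ccl19 cells (7.22 ± 0.37, adjusted p = 7.62e-07), and Adgrd1, an adhesion receptor, at 44.0, 76.4, 159.5, 251 and 214 against 1.20, 0.735, 1.48, 1.80 and 0 CPM (6.73 ± 0.34, adjusted p = 6.86e-07). Both were near the floor in the Ccl19 cells at every age. The other 6 highest were Efhd1 (6.33), Sema3c (6.19), Dmkn (6.14), Ebf2 (5.97), Dpp4 (5.95) and Duoxa1 (5.94), the last a maturation factor of a hydrogen peroxide-producing oxidase. Without the cells with mesothelial UMIs Dmkn stood at 5.49. Fitted differences of genes at 1 UMI or none in a pool depend on the prior count of the fit and are no bounds.

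Among the lowest genes against the Ccl19 cells were Ccl21a and Lrat. Ccl21a was read at 8313, 44376, 64091, 64239.5 and 40038 CPM in the Ccl19 cells (-5.73 ± 0.48, adjusted p = 1.05e-05), and Lrat, which esterifies retinol, at 105, 95.2, 224, 97.8 and 39.4 CPM against 1.86, 0, 1.29, 6.56 and 0 CPM in the members (-5.64 ± 0.41, adjusted p = 4.36e-06). The desmosomal cadherins Dsc2 and Dsc3 gave -5.93 and -5.83, Serpina10 -5.81, and the alike genes Serpina1d, Serpina1b and Serpina1c -5.94, -5.58 and -5.53 log2 units. All 9 reticular markers tested were lower. Of 26 chemokine and cytokine genes 13 were lower and 3 higher, of 11 complement genes 7 lower and 1 higher, of 23 interferon genes 8 lower and 5 higher, and of 23 immediate early and heat-shock genes 9 lower and 0 higher. Of 8 perivascular markers 6 were lower and 0 higher, and of 23 cell-cycle genes 5 lower and 0 higher.

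Many matrix genes were higher in that comparison. Higher than in Ccl19 cells were 14 of 18 universal fibroblast genes (0 lower), 18 of 22 elastic fibre genes (1 lower), 15 of 24 fibrillar collagen genes (0 lower), 12 of 18 basement membrane genes (2 lower), 3 of 9 small leucine-rich proteoglycans (1 lower), 10 of 22 proteases and inhibitors (2 lower) and 4 of 11 hyaluronan genes (2 lower). Mfap5 differed by 5.61 ± 0.37, adjusted p = 2.49e-06, Fbn1 by 4.06 ± 0.19, adjusted p = 6.51e-07 and Col3a1 by 1.68 ± 0.20, adjusted p = 0.000123. Of signalling genes, 11 of 26 Wnt genes were higher and 4 lower, 12 of 29 BMP and TGF-beta genes higher and 5 lower, 5 of 13 IGF genes higher and 4 lower, 14 of 25 vascular genes higher and 7 lower, and 3 of 11 prostanoid genes higher and 3 lower. Also higher were 12 of 15 imprinted genes (0 lower), 7 of 13 retinoid genes (1 lower), 4 of 13 lipid genes (4 lower) and 10 of 35 mesenchymal factors (9 lower). Among the 7 CD34 path factors, Ebf2 (5.97 ± 0.36, adjusted p = 1.49e-06), Klf3 (1.36) and Nfix (1.20) were higher, Cebpa (-0.90) and Irf2 (-0.75 ± 0.23, adjusted p = 0.0386) lower, and Xbp1 (0.47 ± 0.17) and Nfib (-0.35 ± 0.17) not called. Irf2 lost its call without the cells with mesothelial UMIs (adjusted p = 0.0514). Nfib was called lower with only the Mfap4-poor cells (-0.54, adjusted p = 0.0199). Of the marker lists of other cells, 8 of 8 mesothelial, 8 of 8 adjacent-tissue, 4 of 7 Dpep1 Aldh1a2, 1 of 8 endothelial and 1 of 1 Schwann markers were higher, and 1 of 7 Dpep1 Aldh1a2 and 1 of 2 immune markers lower, with none of 8 acinar and 3 erythroid markers called.

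With age imprinted growth genes fell in the members and some genes of lipid handling and complement rose. Over the 5 ages, 167 of 9614 genes tested rose (1.74%) and 153 fell (1.59%) with log2(day + 1) in edgeR's test, with a median slope of -0.01 and 1772 genes at an unadjusted p under 0.05. Slopes are log2 units per unit of log2(day + 1), and the fit had 3 residual degrees of freedom. The count rested on single ages: it was 45 without D0 (9 rising, 36 falling), 497 without D24 (285 and 212), 203 without D300 (138 and 65) and 0 without D56, where 1015 of 8612 genes had an unadjusted p under 0.05, and no other tool was run at that setting. DESeq2 called 361 rising and 219 falling, and with only the Mfap4-poor members edgeR called 108 and 105.

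Among the risers Pla1a, a phospholipase, went through 0.572, 11.8, 121, 386 and 324 CPM (slope 1.23 ± 0.24, adjusted p = 0.0375), and Ces1d, a carboxylesterase, through 0.286, 2.94, 4.52, 61.8 and 67.3 CPM (1.04 ± 0.19, adjusted p = 0.0277). Both were at 4 UMIs or fewer at D0 and high from D56 on. The Dpep1 cells read Pla1a at 0 CPM at D0 and 89.8 at D56, and Ces1d at 0 and 81.6 CPM. Galnt15, a glycosyltransferase, went through 0.715, 5.88, 5.17, 19.7 and 110.2 CPM (0.90 ± 0.10, adjusted p = 0.0112), and Inmt, a methyltransferase of small amines, through 12.0, 32.3, 26.5, 319 and 1194 CPM (0.84 ± 0.13, adjusted p = 0.0171), each highest at D300. Pcolce2, Efemp1 and the interferon-inducible nuclear protein Mnda rose with slopes of 0.84, 0.76 and 0.78, and all 3 were lowest at D0. Glycam1, a mucin of high endothelial venules, rose from 10.6 to 588 CPM in the members (0.80), while endothelial cells read it at 817, 1441, 5841, 8895 and 17871 CPM and the Ccl19 cells at 22.2, 39.7, 243, 241 and 753 CPM, and the part of free RNA in its rise was not tested.

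Among the fallers were imprinted genes. Dlk1, a surface inhibitor of fat cell formation, went through 7319, 1122, 84.6, 4.37 and 0 CPM (slope -1.57 ± 0.23, adjusted p = 0.0169), the non-coding H19 through 3647, 1616, 65.2, 11.5 and 6.12 CPM (-1.31 ± 0.28, adjusted p = 0.0439), and Igf2, a fetal growth factor, through 355, 135, 6.46, 1.09 and 0 CPM (-1.09 ± 0.22, adjusted p = 0.0376). The 3 dropped at every step from D0 to D56, and at D300 they held 1 UMI or none. The Dpep1 cells read Dlk1 at 6962 CPM at D0 and 1.18 at D56, H19 at 3582 and 0, and Igf2 at 253 and 0.785 CPM. Ptn, the growth factor pleiotrophin, went through 3481, 1951, 171, 19.1 and 6.12 CPM (-1.19 ± 0.25, adjusted p = 0.0435), and Prss35, Crabp1, Agtr2 and Mest fell with slopes of -1.35, -1.14, -1.09 and -1.08. Prss35 and Crabp1 were at 0 UMIs at D56 and D300, so that their slopes depend on the prior count.

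**Figure D4:**
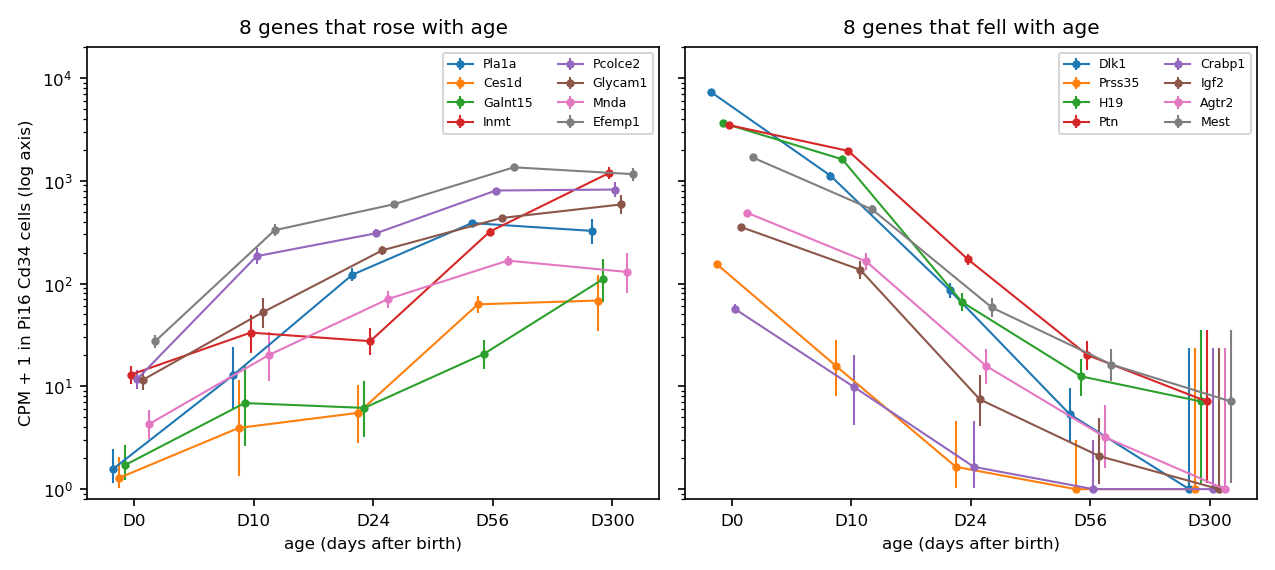
Levels in Pi16 Cd34 cells, in CPM + 1 (log axis), of the 8 genes with the steepest rising (left) and falling (right) slopes named by a fixed rule, at each age. Bars are exact 95% Poisson intervals of 1 pool per age. Pla1a stood at 0.572 CPM at D0 and 324 CPM at D300, and Dlk1 at 7319 CPM at D0 and 0 at D300.

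By list, 10 of 15 imprinted growth genes fell with age and 0 rose, with a median slope of -0.60, including Meg3 (-0.31), Peg3 (-0.67) and the cell-cycle inhibitor Cdkn1c (-0.60). The 8 adjacent-tissue fibroblast markers, summed, went through 17968, 8281, 2206, 452 and 214 CPM in the members. In the Mfap4-poor members 8 of 15 imprinted genes fell. Of 21 elastic fibre genes 5 fell, Eln (-0.35), Fbn2 (-0.72), Mfap2 (-0.53), Mfap4 (-0.89) and Emilin1 (-0.27), and only Efemp1 rose. With only the Mfap4-poor members 1 of 20 fell and 1 rose, and Eln stood at -0.04 (adjusted p = 0.792). Of 24 fibrillar collagen genes Col1a1 fell (-0.56 ± 0.12, adjusted p = 0.0472) and Pcolce2 rose, of 17 basement membrane genes Nid2 fell and Vtn rose, of 9 proteoglycans and 9 hyaluronan genes 0 were called in either direction, and of 22 proteases and inhibitors Timp3 rose. Of 11 complement genes 5 rose and 0 fell, among them C3 (0.73 ± 0.16, adjusted p = 0.0488) and C4b (0.61 ± 0.12, adjusted p = 0.0375). In the Mfap4-poor members 3 of 11 rose, and C3 was no longer called (adjusted p = 0.0538). Of 22 chemokine and cytokine genes 6 rose and 0 fell, namely Ccl21a, Cxcl14, Ackr2, Ackr3 (0.44 ± 0.08, adjusted p = 0.0246), Tslp and Tnfsf13b, the last known as the B cell survival factor BAFF. In the Mfap4-poor members 4 of 21 rose and 0 fell, and Cxcl14 (adjusted p = 0.112) and Ackr2 (0.122) were no longer called. Over the same ages the summed reticular markers in the members went through 225, 933, 904, 4131 and 2846 CPM, led by Ccl21a, and the part of free RNA in these genes was not tested.

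Of the 18 universal fibroblast genes 4 rose and 0 fell: Dpp4 (0.24 ± 0.05, adjusted p = 0.0398), Ly6c1 (0.43 ± 0.09, adjusted p = 0.0415), Igfbp6 (0.47 ± 0.07, adjusted p = 0.0171) and Pcsk6 (0.34). With only the Mfap4-poor members Igfbp6 (0.39) was the 1 gene of this list to be called. Dpp4 then stood at 95.4, 133, 105, 123 and 159 CPM, with a slope of 0.09 (adjusted p = 0.370), and Ly6c1 at 0.34 (adjusted p = 0.0531). Cd248 gave 0.13 ± 0.05, adjusted p = 0.24 and was not called. In the signalling lists Sfrp4 rose while Sfrp1 and Dkk2 fell among 22 Wnt genes, and Bmp2, Bmp7, Tgfbr3 and Fst rose while Tgfb3 fell among 29 BMP and TGF-beta genes. Vegfa (0.33), Fgf2 (0.47) and Sema3e (0.71) rose among 23 vascular genes, Ptgs1 and Ptges among 11 prostanoid genes, and Igfbp6 among 12 IGF genes, where Igf2 and Igf2r fell. In the Mfap4-poor members 2 of 28 BMP and TGF-beta genes rose and 0 fell, and Bmp7 (adjusted p = 0.252), Tgfbr3 (0.0600) and Tgfb3 (0.165) were no longer called. Then 2 of 21 vascular genes rose without Sema3e (adjusted p = 0.0538), 1 of 10 prostanoid genes without Ptges (0.0799), and Igf2r (0.0643), Timp3 (0.0544) and Pcsk6 (0.0758) lost the call too. Of 11 lipid genes 4 rose, among them Apoe (0.42), and 1 fell (Fabp5), and of 13 retinoid genes 1 fell (Crabp1). Of 33 mesenchymal factors Klf4 rose (0.35 ± 0.06, adjusted p = 0.0265) and Klf5, Twist2 and Snai2 fell (Snai2 with adjusted p = 0.0542 in the Mfap4-poor members), none of the 7 CD34 path factors was called, 3 of 23 interferon genes rose (Psmb8, Psmb9, B2m), and Fosb and Dusp1 rose among 23 immediate early and heat-shock genes. Of the markers of other cells, 5 of 8 adjacent-tissue and 2 of 6 perivascular genes fell, 1 of 6 reticular genes rose, 1 of 7 Dpep1 Aldh1a2 genes rose and 1 fell, and none of 8 mesothelial, 6 endothelial, 1 immune, 1 Schwann and 6 acinar genes was called. In the Mfap4-poor members 3 of 6 adjacent-tissue and 0 of 4 perivascular genes fell.

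Steps between single ages have no test, and are given as log2 ratios to D56. The median absolute log2 ratio was taken over genes with at least 50 CPM at either age. The limit of 2 times the endothelial level was applied only to the genes named. The median was 0.48 for D0 (3277 genes, of which 408 were at least 2-fold higher and 387 lower than at D56), 0.40 for D10 (3184, 262 and 230), 0.36 for D24 (3111, 167 and 128) and 0.36 for D300 (3018, 118 and 175). With TMM-scaled levels the counts were 334 higher and 458 lower at D0, 181 and 311 at D10 and 126 and 186 at D24, which turns the balance at all 3 of these ages. Against D56, Ptgs2, the inducible cyclooxygenase, stood at 0.572 CPM at D0 (4 UMIs) and 1.47 CPM at D10 (1 UMI) against 149 CPM. Slpi, a secreted protease inhibitor, was at 1.14, 2.94, 75.6, 171 and 0 CPM, so that it was read almost solely at the middle ages.

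At D24 genes of mesothelial and epithelial cells were among the highest ratios. Krt14 (67.2 against 2.19 CPM at D56), Upk1b (142 against 12.0) and Lgals7 (309 against 26.2) were among its 5 highest ratios, at the age where 20 of 171 members carried mesothelial UMIs, beside Dlk1 (84.6 against 4.37) and Fbn2 (51.7 against 4.37). Its lowest ratios were of Ces1d, Efhd1, Tmeff2, Pla1a and the receptor Il4ra (30.4 against 94.6 CPM). At D300, on 31 cells, Gpnmb, a glycoprotein of lysosome-rich cells, stood at 91.8 CPM (15 UMIs) against 16.4 at D56, Galnt15 at 110.2 (18 UMIs) against 19.7, Fam71a at 73.4 (12 UMIs) against 12.0, Kat5 at 73.4 (12 UMIs) against 16.4 and Otud1 at 55.1 (9 UMIs) against 13.1. The Dpep1 cells read Gpnmb at 147 CPM at D300 and 25.1 at D56, Galnt15 at 116 and 22.0, and Fam71a at 26.6 and 7.45 CPM. There Kat5 stood at 20.1 and 19.2, and Otud1 at 25.0 and 18.0 CPM. In the members Ttyh2, Nkain4, Mmp3 and Flna were at 1 or 2 UMIs at D300, against 66.7, 55.8, 94.6 and 89.1 CPM at D56.

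Part of the genes called over age in the members were also called in the Dpep1 cells. There, of 8894 genes tested, 276 rose (3.10%) and 172 fell (1.93%). Of the 167 rising genes 60 also rose in the Dpep1 cells (35.9% of 167 and 21.7% of 276), and of the 153 falling genes 55 also fell there (35.9% of 153 and 32.0% of 172). In 1 fit over both classes, the slope differed for 139 of 9928 genes, being higher in the members for 60 (0.604%) and lower for 79 (0.796%), with a median difference of -0.02 and 974 genes at an unadjusted p under 0.05. Without D0 it was 14, without D56 91, without D300 82 and with only Mfap4-poor cells 58, of which 9 were higher in the members, and under the shared Ccl19 limit 64, of which 34 were higher. Ackr3 and Cd248 moved away from the Dpep1 cells with age, with slope differences of 0.39 ± 0.07, adjusted p = 0.00284 and 0.35 ± 0.05, adjusted p = 0.00101. Sema3c (0.51 ± 0.06, adjusted p = 0.00019), Igfbp6 (0.33 ± 0.07, adjusted p = 0.012), Anxa3 (0.33) and Tnxb (0.19) did likewise among 18 universal fibroblast genes, of which Thy1 had the lower slope (-0.97 ± 0.20, adjusted p = 0.0112). With only the Mfap4-poor cells 0 of these 18 genes had a higher slope, and Sema3c (adjusted p = 0.262), Igfbp6 (0.400), Anxa3 (0.989) and Tnxb (0.923) were not called, nor was Ackr3 (0.29, adjusted p = 0.400). Cd248 kept its call there (0.36, adjusted p = 0.00952). Under the shared Ccl19 limit Ackr3 (0.35, adjusted p = 0.0171) and Cd248 (0.31, 0.0111) were called, and Igfbp6 (0.0689), Anxa3 (0.0956) and Tnxb (0.255) were not.

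Single Wnt, growth factor and matrix genes also differed in slope. Sfrp4 rose through 13.2, 134, 197, 374 and 526 CPM in the members and went through 72.3, 37.2, 40.3, 30.2 and 24.2 CPM in the Dpep1 cells, a slope difference of 0.80 ± 0.10, adjusted p = 0.00019, and Fgf2, a fibroblast growth factor, went through 6.58, 14.7, 56.2, 48.1 and 67.3 against 10.3, 14.2, 16.1, 8.63 and 4.03 CPM (0.61 ± 0.15, adjusted p = 0.0376). The Sfrp4 level was below that of the Dpep1 cells at D0 and above it from D10 on, and Fgf2 was no longer called with only the Mfap4-poor cells (adjusted p = 0.265) or under the shared Ccl19 limit (0.122). Of 21 elastic fibre genes 5 had a higher slope and 0 a lower one, among them Fbn1 (0.37) and Mfap5 (0.30). Col14a1 and Col12a1 did so among 24 collagen genes, 4 of 18 basement membrane genes with 1 lower, 2 of 9 proteoglycans with 2 lower, 1 of 10 hyaluronan genes (Vcan), 2 of 22 proteases with 1 lower, 2 of 25 Wnt genes with 1 lower, 1 of 29 BMP and TGF-beta genes (Fstl1), 3 of 25 vascular genes with 1 lower and 1 of 12 IGF genes with 1 lower. In 24 chemokine genes Ackr3 was higher and Cxcl1 lower, in 24 interferon genes 1 was higher and 1 lower, in 11 complement genes Clu lower, in 16 imprinted genes Peg3 lower and in 34 mesenchymal factors Klf6 and Sox4 lower. None of 11 prostanoid, 13 retinoid, 13 lipid, 22 cell-cycle and 7 CD34 path genes was called. Of the other cells' markers, 1 of 9 reticular genes was lower, 1 of 8 adjacent-tissue genes higher and 1 lower, 1 of 8 mesothelial genes higher and 3 of 8 perivascular genes lower, with none of 7 Dpep1 Aldh1a2, 6 endothelial, 1 immune, 1 Schwann, 8 acinar and 3 erythroid genes called. In the fit of the Mfap4-poor cells a higher slope was called for 0 of 20 elastic fibre genes, 0 of 18 basement membrane genes, 0 of 9 proteoglycans, 0 of 22 proteases and 0 of 24 vascular genes, with Fbn1 (adjusted p = 0.136) and Mfap5 (0.250) among the calls lost. Under the shared Ccl19 limit it was called for 3 of 21, 1 of 18, 1 of 9, 1 of 22 and 1 of 24 genes of these lists, and no perivascular gene was called in either fit.

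Stress-response genes mostly had lower slopes in the members. Of 23 immediate early and heat-shock genes tested 15 had a lower slope in the members and 0 a higher one, such as Hspa1a (-0.41 ± 0.06, adjusted p = 0.000392), a heat-shock protein with the near-identical copy Hspa1b, and Dnajb1 (-0.36 ± 0.06, adjusted p = 0.00435). Dnajb1 was read at 705, 407, 739.6, 882 and 698 CPM in the members and 392.2, 447, 2815, 2724 and 2143 CPM in the Dpep1 cells. The members were above the Dpep1 cells at D0 and below from D10 on. The count was 6 of 23 with only the Mfap4-poor cells and 3 of 23 under the shared Ccl19 limit, where Hspa1a (-0.34, adjusted p = 0.0135) was called and Dnajb1 (adjusted p = 0.0512) was not.

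Within the Pi16 Cd34 cells, those with at least 2 Ackr3 UMIs (110, 27, 95, 198 and 19 cells by age) were set against those with none (570, 38, 38, 68 and 8 cells). Median UMIs per cell were 9122.5, 8232, 9510, 6274 and 5642 in the Ackr3-high and 7954, 6852.5, 8503.5, 4690 and 3524.5 in the Ackr3-negative cells, and both numbers of Ackr3 UMIs and depth thus differed. Of 5705 genes tested, Ackr3 aside, 44 were higher (0.771%) and 28 lower (0.491%) in edgeR's test, with 60 of the 72 moving alike at the 5 ages and 547 genes at an unadjusted p under 0.05. With every cell thinned to 3000 UMIs and this split kept, 39 genes were called of 2764 tested, 22 higher and 17 lower. With the cells thinned and then split anew at 1 Ackr3 UMI or more against none, so that depth and split changed together, 49 were called, 18 higher and 31 lower. It was 258 without D0 (115 higher, 143 lower), 23 without D24, 13 without D56, 34 without D300 and 167 with the Mfap4-poor cells alone (75 higher, 92 lower).

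Universal fibroblast genes and secreted proteins were among the genes higher in the Ackr3-high cells. Of 18 universal fibroblast genes 8 were higher and 0 lower: Efhd1 (1.94 ± 0.29, adjusted p = 0.00665), Limch1, Anxa3 (1.47 ± 0.26, adjusted p = 0.0188), Cd55 (1.46 ± 0.23, adjusted p = 0.00736), Sema3c (1.13 ± 0.24, adjusted p = 0.0346), Thy1, Ly6c1 and Dpt. Krtdap was read at 476, 572, 415, 323 and 540.0 CPM in Ackr3-high and 290.4, 112, 136, 55.7 and 0 CPM in Ackr3-negative cells (1.79 ± 0.30, adjusted p = 0.0107), and Nov, a matrix-bound signalling protein, at 264, 303, 63.5, 145 and 87.1 against 136, 65.5, 18.5, 34.0 and 0 CPM (1.61 ± 0.24, adjusted p = 0.00665). Both were higher at each age from D0 to D56, and the 8 negative cells at D300 held 0 UMIs of either in 28999. Akr1c18, which degrades progesterone, was higher by 3.42 ± 0.45, adjusted p = 0.00278, the vessel-constricting peptide gene Edn1 by 1.87 ± 0.42, adjusted p = 0.0479, Lurap1l by 1.73 and Aif1l by 1.59. With thinned cells and this split kept, Efhd1 (adjusted p = 0.0576), Edn1 (0.196) and Lurap1l (0.245) were no longer called, and Akr1c18 and Aif1l were too low to be tested. With the split at 1 UMI after thinning, Akr1c18 (adjusted p = 0.0860), Limch1, Lurap1l, Aif1l and Edn1 lost the call. Akr1c18 was also lost in the Mfap4-poor cells (adjusted p = 0.148) and Edn1 without the cells with mesothelial UMIs (adjusted p = 0.0539). Also higher were Ptx3 (1.5, the 1 gene called of 8 hyaluronan genes), Pla1a (2.29), Cthrc1 (1.52), Sfrp4 (1.33), Col14a1 (1.08) and Pcolce2 (0.999), and Fbn1, Mfap5 and Efemp1 among 20 elastic fibre genes, with 0 lower. Fstl1 (0.90) and the proteoglycan-cleaving Adamts5 (1.09) were higher among 24 BMP and TGF-beta genes and 21 proteases and inhibitors.

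Lower in the Ackr3-high cells were Inmt, at 5.84, 4.15, 19.7, 145 and 496 against 13.2, 57.8, 37.0, 1043 and 3793 CPM (-2.38 ± 0.29, adjusted p = 0.00257), and Enpp2, the enzyme autotaxin that makes lysophosphatidic acid, at 15.6, 29.0, 76.6, 101 and 209 against 32.5, 204, 154, 588 and 345 CPM (-1.66 ± 0.29, adjusted p = 0.0149). Every age had the lower level in the Ackr3-high cells for both genes, on few UMIs at D300. Apoe (-1.40 ± 0.27, adjusted p = 0.0218), the intermediate filament gene Des (-1.65 ± 0.34, adjusted p = 0.0343), Serpine2 (-1.61), Birc3 (-1.56), Iigp1 (-1.55) and Tmem176a (-1.49) were lower too, and Des lost the call in both thinned fits. Serpine2 lost it with the split kept (adjusted p = 0.0582), where Birc3 was too low to be tested, and Birc3 with the split at 1 UMI. Of 7 mesothelial markers 3 were lower, Krt18 (-3.53), Krt8 (-2.85) and Krt19 (-2.62), and the 35 cells with mesothelial UMIs read Ackr3 at 83.3 CPM against 226 CPM in the others. Further lower were Gdf10 (-1.40), Ptger3 (-2.11), C4b (-1.23), Gbp2 (-1.02) and Klf5 (-2.58). No member of the chemokine (16 genes tested besides Ackr3), Cxcl12 included at -1.47 ± 0.40 (adjusted p = 0.118, edgeR), nor of the IGF (10), imprinted (14), retinoid (9), basement membrane (15), proteoglycan (8), cell-cycle (13), stress (23) and CD34 path (7) lists was called. In the Mfap4-poor cells Cxcl12 was called lower (-1.84, adjusted p = 0.00492), 4 of 23 stress genes were lower and 11 of 17 universal fibroblast genes higher, while Thy1 and Klf5 (adjusted p = 0.0682 for both) lost the call. Without the cells with mesothelial UMIs the calls of Dpt (adjusted p = 0.138), Sfrp4 (0.0762), Ptger3 (0.0906) and Gbp2 (0.183) were lost.

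**Figure D5:**
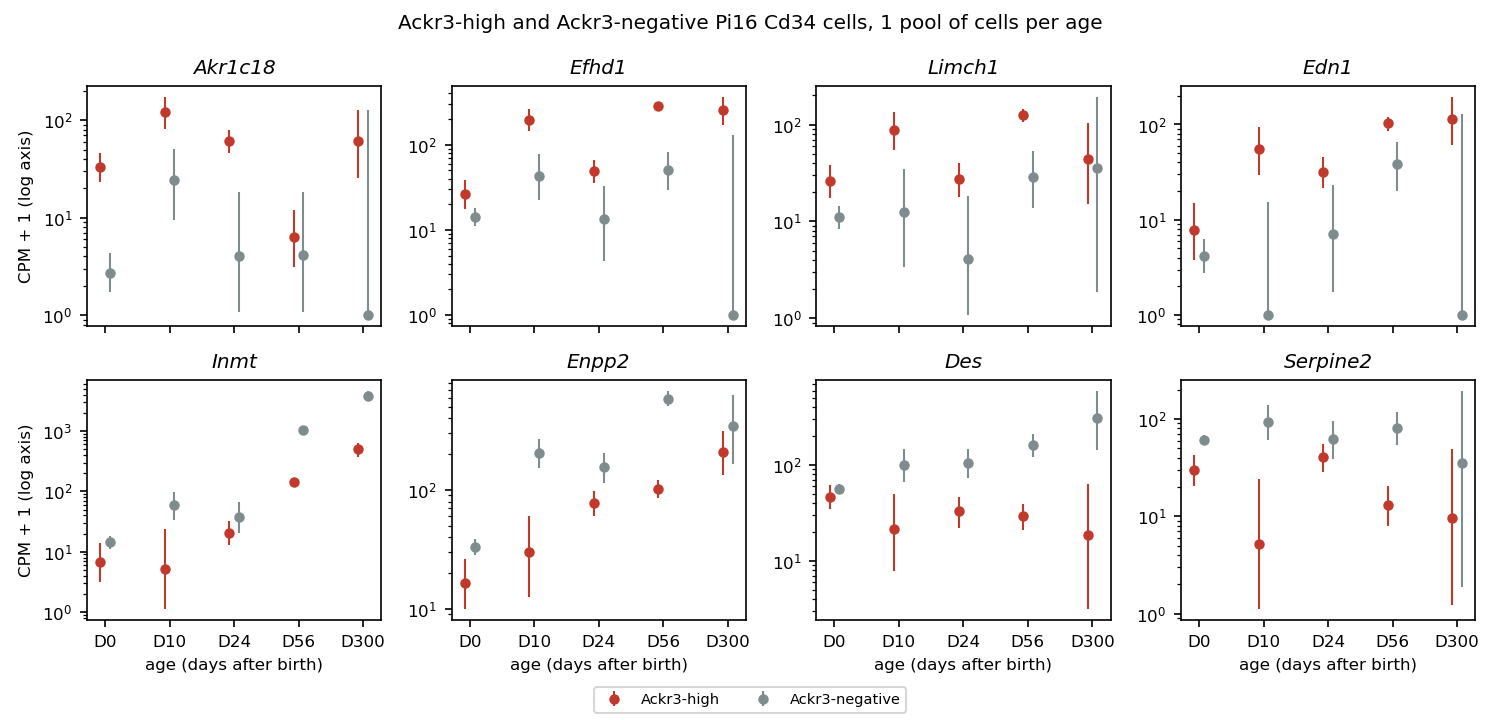
Levels in CPM + 1 (log axis) of the 4 highest and 4 lowest named genes in Ackr3-high (red, at least 2 Ackr3 UMIs) and Ackr3-negative (gray, no Ackr3 UMI) Pi16 Cd34 cells at each age. Points are 1 pool of cells per age with exact 95% Poisson intervals, which are wide for the 8 Ackr3-negative cells at D300. Inmt and Enpp2 were lower in the Ackr3-high cells at every age.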

How the data were processed

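Droplet 3′ libraries (10x Genomics, version 2 chemistry) of sorted mLN stromal cells were made by the study. Per the submitters' processing notes, reads were handled with Cell Ranger 2.0.0, STAR and Seurat 2.3.3 on mm10, and the annotation release is not given in the sources used here. The authors deposited raw UMI counts in 1 merged matrix of 27998 genes and 17692 cells, in which a cell is named by its age and a number, without its barcode, so barcodes shared between libraries could not be counted. No column was left unassigned to an age.

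Cells were filtered by the study's limits on genes and mitochondrial share, which left fewer cells here than the study states, and the gap was not resolved. Scrublet marked 72 cells (0.407%) and was judged not to have worked, so no doublet was removed and the 5% highest scores were left out as an alternative. UMI counts were summed per class and age, and tested with edgeR 4.0.16 (TMM, filterByExpr with a minimum count of 10, quasi-likelihood, Benjamini-Hochberg) in R 4.3.3. Classes were compared with age as a block, and slopes on log2(day + 1) were fitted within the members and as a difference between classes. DESeq2 1.42.0 was an alternative, beside library-size scaling, no filter on low counts or on cells, stricter and looser gates, no age block, ranked ages, thinning and leaving out each age. The fits on Mfap4-poor cells, without cells with mesothelial UMIs, with the Ccl19 limit of the members also on the Dpep1 cells, and on thinned cells with the Ackr3 split kept were chosen after seeing the data. The members, the lists and the tests were chosen with earlier results of these data known.

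The tests were checked on simulated counts with known changes. Precision was set by the UMIs summed per class and age, and intervals cover counting error only.

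Genes were named by rule. For class comparisons and the Ackr3 split these were the 8 highest and 8 lowest differences among called genes with a mean of at least 50 CPM in the higher class and 1 direction at 5 ages. For slopes they were 8 in each direction with at least 50 CPM at the highest age, and for ratios to D56 5 in each direction among genes with at least 50 CPM and at least 2 times the endothelial level. In lists they were the 3 highest in level and 3 with the largest called change. Other genes of the lists were named after their values were seen. Predicted genes, mitochondrial, ribosomal and haemoglobin genes were left out of the named sets, and the 5 rule genes out of all counts. Positions are from GENCODE vM21 (GRCm38), which held 26646 of 27998 symbols (95.2%).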

Additional observations from a re-analysis of the deposited data

Results flagged for a closer look

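The slope with age differed between Pi16 Cd34 cells and Dpep1 cells, by the interaction term of edgeR's fit, for 139 genes, and the 16 named ones are given here as the members' slope minus that of the Dpep1 cells, with levels in CPM from D0 to D300. Higher in the members were Car3 (1.98), Epyc (1.85), Pbk (1.11), Sfrp4 (0.80), Wisp2 (0.78), Nkain4 (0.72), Fgf2 (0.61) and Cthrc1 (0.59). Lower were Saa3 (-8.69), Cd74 (-1.39), Thy1 (-0.97), Kcnk3 (-0.96), Chchd10 (-0.84), Stc1 (-0.79), Dnaja4 (-0.68) and Fmod (-0.63).

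Several of these rest on few UMIs or few cells. Car3, a carbonic anhydrase, was read at 0, 0, 0.646, 11.5 and 6.12 CPM in members and 0, 28.3, 53.7, 20.005 and 1.61 CPM in Dpep1 cells, and Saa3, an acute-phase protein, at 1.43, 0, 14.2, 0.547 and 0 against 0, 0, 0.895, 76.5 and 6.44 CPM, both with pools at 0, so that their slopes depend on the prior count. Epyc, Pbk and Wisp2 had their highest Dpep1 level in the 23 cells at D0 (56.8, 51.6 and 67.1 CPM). Without the cells that carry mesothelial UMIs the slope differences of Nkain4 and Cd74 were 0.31 and -0.28 (adjusted p = 0.0633 and 0.469), while that of Chchd10 was -0.72 and lost its call (adjusted p = 0.109). Cthrc1, a secreted protein of repairing matrix, went through 569, 459.7, 145, 21.9 and 24.5 CPM in the members against 578, 145, 11.6, 1.96 and 1.61 CPM in the Dpep1 cells and lost its call, of the alternatives run, only without D0. With only Mfap4-poor cells, of which the D0 pool of Dpep1 cells holds 2, Nkain4, Fgf2, Kcnk3, Stc1, Dnaja4 and Fmod were no longer called and Pbk changed sign.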

How the results depend on the processing

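No paired analysis was possible because the replicate numbers of the D56 and D300 libraries are not carried by the cell names. The pools of 1 age were matched by the age block in the class and Ackr3 fits, without which the counts are given below. Of 163 alternative values of counts, shares and medians 104 stayed close to the main value and 59 moved, and of 1348 for single genes 1138 kept direction and side of the threshold, 196 lost the call, 10 gained it and 4 changed sign, while DESeq2 gave no adjusted p for 11. The causes were not tested.

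Genes called against Dpep1 cells (973) were 114 without the age block, 516 under the stricter gate and between 390 and 1256 when 1 age was left out. Against Ccl19 cells (2387) they were 1302 without the block and 1669 to 2177 without 1 age. Slope calls (320) were 580 with DESeq2, 773 without a filter on low counts, 131 under the stricter gate, 601 on ranked ages, 213 in Mfap4-poor cells and 0 to 497 without 1 age. Slope differences (139) were 83 with DESeq2, 253 without the filter, 58 in Mfap4-poor cells, 64 under the shared Ccl19 limit and 14 to 189 without 1 age. Ackr3 calls (72) were 245 without the filter, 167 in Mfap4-poor cells, 39 thinned with the split kept, 13 to 258 without 1 age and 0 without the age block, where 158 of 4233 genes had an unadjusted p under 0.05 in edgeR and no other tool was run.

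Shares of members at D0 were 9.75% under the stricter and 41.3% under the looser gate, 17.1% thinned, 24.5% with no filter on cells, 22.3% of all kept cells and 6.0% in Mfap4-poor cells. At D10 they were 1.31%, 9.34%, 4.42% of all kept cells and 3.87% Mfap4-poor. At D24 they were 5.91%, 21.1%, 12.2% thinned, 9.95% of all kept cells and 12.2% Mfap4-poor. At D56 they were 2.76%, 14.4%, 13.5% with no filter on cells and 8.15% of all kept cells, and at D300 0.671% under the stricter gate and 1.47% of all kept cells. The stricter gate gave a median absolute log2 ratio to D56 of 0.59 at D10 and 0.59 at D300. Cycling shares were 12.3% without thinning and 12.6% from 1 UMI at D0, 15.8% under the stricter gate at D10, 3.51% and 3.51% at D24, 2.36% from 1 UMI at D56 and 0% under the stricter gate at D300.

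Xbp1 against Dpep1 cells changed sign to 0.0023 with library size only and 0.034 under the looser gate. The slope difference of Kcnk3, -0.96 in the main fit and -1.61 without D56, changed sign to 0.13 without D0. That of Pbk changed sign to -1.33 in Mfap4-poor cells. Of the named slopes and slope differences 21 of 28 lost their call without D56, 16 of 28 without D0, 11 of 30 without D300, 13 of 32 under the looser and 11 of 26 under the stricter gate. Depth limits the 31 members at D300, the 23 Dpep1 cells at D0 and the 8 Ackr3-negative cells at D300.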
